A study of Saccharomyces cerevisiae with 11 samples.

Results

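The genes described here are 33 nitrogen catabolism and uptake genes of the yeast Saccharomyces cerevisiae, taken from a fixed list of symbols. The list holds 7 genes of allantoin and urea use, 3 of proline use, 3 of GABA use, 2 of arginine use, 5 amino acid permeases, 3 ammonium permeases, 5 genes of ammonium assimilation and 5 regulators around the GATA factors. All 33 were matched by symbol to a probe set annotated to that gene alone, and all 33 were among the 5577 genes tested. For 29 of them the array held 1 such probe set. DAL5, UGA2, UGA3 and UGA4 had several, and the brightest was used for each.

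Yeast prefers some nitrogen sources, such as ammonium and glutamine, over others, such as proline, allantoin, urea and GABA. Genes for the uptake and breakdown of the less preferred sources are held low while a preferred source is plentiful, a control known as nitrogen catabolite repression. It acts through the GATA factors: Gln3 and Gat1 activate these genes, Dal80 and Gzf3 oppose them at the same GATA sites, and Ure2 keeps Gln3 in the cytoplasm. Many of the pathways also need their own inducer, such as proline through Put3 or GABA through Uga3.

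Every array came from a rim15 deletion mutant of the prototrophic laboratory strain CEN.PK113-7D. Rim15 is a protein kinase of entry into the resting state. The cells grew anaerobically and glucose-limited, in synthetic medium with 50 g/l glucose and an antifoam agent, at a dilution rate of 0.025 per h and at the same pH and temperature in all groups. The 5 groups were the chemostat (3 cultures, which the design names as the starting point and whose culture codes differ from those of the retentostats) and the retentostat after 2, 9, 16 and 20 days (2 arrays each). In a retentostat the effluent leaves through a filter, so the cells stay in the vessel while medium flows through and growth slows towards zero. The retentostat arrays came from 2 cultures, here called culture 1 and culture 2 after their replicate numbers, each sampled on all 4 days. The labels do not say whether the mutant was 1 clone, and they do not name the nitrogen source of the medium. No wild-type array was analysed here.

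Each array gave 1 signal per probe set, in arbitrary units, and the number of arrays limits the precision. The median signal per array was 85.3 to 122, and 15.8% to 22.9% of the probe sets lay at or under a signal of 12, which was used as the floor. RIM15 had a signal of 0.4 to 13.9 on the 11 arrays. The ratio of the 3' to the 5' control probe set of ACT1, a measure of RNA and label quality, was 0.966 to 2.03 on 8 arrays and 27.0, 217 and 31.8 on the culture 2 arrays of days 9, 16 and 20. These 3 arrays, called the high-ratio arrays below, stand apart, and calls that are lost or gained without them are given both ways. Without them each of those days has 1 array, which the fit takes to vary like the other groups. Changes per cell and changes in the make-up of the culture cannot be told apart in such bulk samples. The 4 comparisons with the chemostat share the same 3 chemostat arrays, so they are not independent of one another.

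On day 20, 5 of the 33 genes were higher than in the chemostat and none was lower, by limma with Benjamini-Hochberg adjustment over 5577 genes at a threshold of 0.05, with a floor of 12 on the deposited scale, all 11 arrays and no block (the settings of the main test). The 5 were the GABA permease gene UGA4, the urea transporter gene DUR3, the proline catabolism gene PUT2, the allantoicase gene DAL2 and the repressor gene DAL80. They make up 15.2% of the list, beside 13.5% of all genes called in that comparison and 10.5% called higher. On day 9, 4 genes were higher and GDH1 was lower, again 15.2% of the list, beside 15.1% of all genes (11.4% higher, 3.68% lower). On day 16, 6 were higher and GDH1 was lower, which is 21.2% of the list beside 20.9% of all genes (16.6% higher, 4.32% lower). On day 2 none of the 33 passed, beside 0.0179% of all genes, and 8 of them (24.2%) had an unadjusted p under 0.05, beside 8.57% of all genes. These 8, all above the chemostat, were DAL2, PUT2, GDH3, GAT1, MEP2, UGA4, DUR3 and MEP1. Without the 3 high-ratio arrays days 9, 16 and 20 have 1 array each, so no count of members is set beside all genes here. In that setting PUT3 was at a log2 difference of -1.15 and -1.10 on days 9 and 16. GLN1 was at -1.43 and -1.65 on the same days, and URE2 at -0.66 on day 9. Calls that changed in that setting are given with each gene below. In the F test over the 5 sampling points 4 genes passed (DAL80, DUR3, PUT2 and UGA4), or 12.1% of the list beside 11.4% of all genes. From day 9 on the share of the list that passed was therefore close to the share of all genes, and the results below concern single genes rather than the list.

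Against the chemostat, the 33 genes had a median log2 difference of 0.30, 0.13, -0.06 and 0.11 on days 2, 9, 16 and 20. Over all genes tested the median was 0.11, 0.25, 0.35 and 0.36 on the same days. On day 20, 19 of the 33 genes lay above 0, but 8 lay above the median of all genes, and the differences ran from -1.18 for AGP1 to 2.26 for UGA4. The log2 differences given below are on the deposited scale, without the shift of all genes taken off. Less that shift, the day 20 differences were 1.90 for UGA4, 1.23 for PUT2, 1.22 for DUR3, 0.98 for DAL2 and 0.70 for DAL80. With each array scaled to the same median, which took the shift of all genes on day 20 to -0.07, the day 20 calls of members split into 3 higher (UGA4, PUT2, DUR3) and 3 lower (GDH1, GLN1, GLN3) in place of 5 and 0. Those of day 16 split into 3 higher (the same 3 genes) and 4 lower (GDH1, GLN1, GLN3, CAR2). Those of day 9 split into 3 higher (DAL2, PUT2, UGA4) and 2 lower (GDH1, GLN1). Of all genes, 9.45%, 13.4% and 11.2% passed on days 20, 16 and 9 with the same scaling. The calls of DUR3 on day 9, PUT1 on day 16 and DAL2 and DAL80 on days 16 and 20 were lost under that scaling (adjusted p 0.103 to 0.163), and so were they under quantile scaling (adjusted p 0.0910 to 0.191). Under quantile scaling GLN3 passed as lower on days 16 and 20 and DAL3 on day 20. That split the day 20 calls into 3 higher and 2 lower, beside 7.57% of all genes called.

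**Figure D1:**
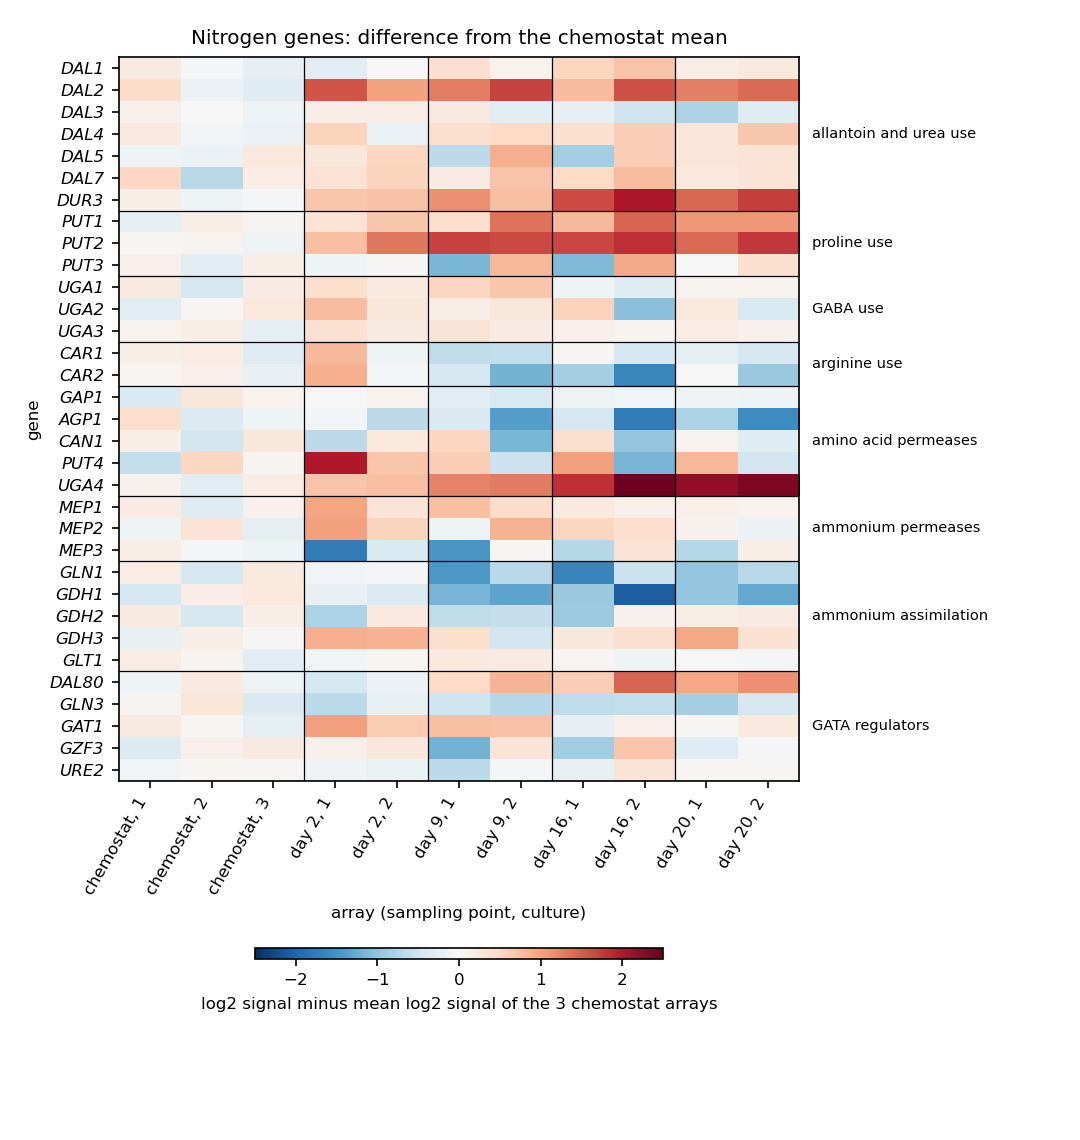
Log2 difference of each of the 33 genes (rows, grouped by role) on each of the 11 arrays (columns) from the mean of the 3 chemostat arrays, as colour. UGA4, PUT2 and DUR3 are above the chemostat on all retentostat arrays, and PUT4, MEP3, PUT3 and CAN1 differ between culture 1 and culture 2.

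Among the 7 genes of allantoin and urea use, DAL2 and DUR3 were higher than in the chemostat on days 9, 16 and 20, and the other 5 passed in no comparison at the settings of the main test. DUR3, the transporter that brings urea into the cell, had signals of 63.8, 52.9 and 55.7 in the chemostat cultures. In culture 1 its signal was 92.1, 127, 177 and 155 on days 2, 9, 16 and 20, and in culture 2 it was 94.8, 96.6, 232 and 189. All 8 retentostat values were above all 3 chemostat values. The mean went from 57.5 ± 5.66 (SD, n = 3) to 172 ± 24.1 (SD, n = 2) on day 20. The log2 difference was 0.95 on day 9 (adjusted p = 0.0261), 1.82 on day 16 (adjusted p = 0.00176) and 1.58 on day 20 (adjusted p = 0.00419), each with an SE of 0.24, or 2.99-fold on day 20. On day 2 it was 0.71 and did not pass (adjusted p = 0.397). DUR3 also differed over the 5 sampling points in the F test (adjusted p = 0.00702). Leaving out a chemostat array, or that of culture 1 on day 9, ended the day 9 call (adjusted p 0.0602 to 0.0948). The day 20 call was lost when the culture 2 array of that day was left out (adjusted p = 0.0721).

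DAL2, the allantoicase that splits allantoate, had chemostat signals of 92.0, 60.2 and 54.1. Culture 1 gave 198, 162, 115 and 161 on the 4 days and culture 2 gave 134, 215, 204 and 179, so every retentostat value lay above the highest chemostat value. The log2 difference was 1.48 on day 9 (adjusted p = 0.0202), 1.2 on day 16 (adjusted p = 0.0363) and 1.34 on day 20 (adjusted p = 0.0333), each with an SE of 0.34, which is 2.54-fold on day 20. It was already 1.28 on day 2, where it did not pass (adjusted p = 0.328), and the day 20 level differed from that of day 2 by 0.06 (adjusted p = 0.967). Unlike DUR3 and UGA4, whose highest signals came on day 16 or 20, DAL2 held signals of 115 to 215 over all 4 days; no test compared the 2 courses. Its calls rested on few arrays: leaving out chemostat array 2 or 3 ended all 3 of them, with adjusted p of 0.0646 and 0.0770 on day 9, 0.0978 and 0.113 on day 16 and 0.0924 and 0.104 on day 20. So did the culture 2 array of day 9 for day 9 (adjusted p = 0.100), that of day 16 for day 16 (0.78, adjusted p = 0.222), and either day 20 array for day 16 (adjusted p = 0.0591) and for day 20 (adjusted p 0.127 and 0.236). Without the 3 high-ratio arrays the difference was 1.27, 0.78 and 1.27 on days 9, 16 and 20 (adjusted p 0.0946, 0.233 and 0.117).

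The other DAL genes are DAL1 (allantoinase), DAL4 (allantoin permease), DAL5 (allantoate and ureidosuccinate permease), DAL7 (a malate synthase) and DAL3 (ureidoglycolate lyase). DAL1 had signals of 50.3 to 68.3 in the chemostat and 65.2 to 94.9 on days 16 and 20, with a log2 difference of 0.62 on day 16 (adjusted p = 0.0826), which passed with a floor of 50 (adjusted p = 0.0386) or with no filter on low values (adjusted p = 0.0479). DAL4 had 78.2 to 105.0 in the chemostat and 108.5 and 141 on day 20 (log2 difference 0.48, adjusted p = 0.254). DAL3 had 59.6 to 70.8 in the chemostat and 37.9 and 51.9 on day 20, a log2 difference of -0.55 that did not pass (adjusted p = 0.159), and under quantile scaling it was -1.04 and passed (adjusted p = 0.0468). DAL7 was the dimmest of the 33 genes, with signals of 10.9 to 33.2 on the 11 arrays, and was under the floor on chemostat array 2. DAL5 had 214 to 287 in the chemostat and 294 and 302 on day 20 (log2 difference 0.32, adjusted p = 0.685).

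Along chromosome IX the cluster runs DAL1, DAL4, DAL2, DCG1, DAL7, DAL3 in the gene table, so DAL2 lies among genes that did not pass at those settings. Its neighbour DCG1 had signals of 11.1 to 30.8 over the 11 arrays and a log2 difference of 0.31 on day 20 (adjusted p = 0.608). Which of these genes passed depended on the setting: with a floor of 50, DAL1 passed on day 16 in place of DAL2 (adjusted p = 0.0550), and under quantile scaling DAL3 passed on day 20 in place of DAL2.

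The 3 genes of proline use are PUT1 (proline oxidase), PUT2 (the dehydrogenase that follows it and yields glutamate) and PUT3 (the proline-responsive activator of both). PUT2 was higher on days 9, 16 and 20 and PUT1 on day 16, while PUT3 passed in no comparison with all 11 arrays and passed as lower on days 9 and 16 without the 3 high-ratio arrays. PUT2 had chemostat signals of 194, 197 and 172, then 315, 600.4, 597.5 and 497 in culture 1 and 467, 587, 664 and 639 in culture 2 on days 2, 9, 16 and 20. The lowest retentostat value, on day 2, was above the highest chemostat value, and both cultures were near their day 9 level from then on. The log2 difference was 1.67 on day 9 (adjusted p = 0.00363), 1.75 on day 16 (adjusted p = 0.00220) and 1.59 on day 20 (adjusted p = 0.00426), each with an SE of 0.24, or 3.01-fold on day 20. On day 2 it was 1.04, with an adjusted p of 0.232. The F test over the sampling points also passed for PUT2 (adjusted p = 0.00645).

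The PUT2 calls of days 9 and 16 were kept in all 23 other settings. Dropping the culture 2 array of day 20 ended that of day 20 (1.41, adjusted p = 0.0740), as did dropping the 3 high-ratio arrays (1.41, adjusted p = 0.0564), and without those 3 arrays the F test gave an adjusted p of 0.0657. PUT1 went from 58.4, 75.5 and 71.9 in the chemostat to 119.8 and 186 on day 16 and 145.5 and 144 on day 20. No retentostat value of PUT1 on any day lay within the chemostat range. The day 16 log2 difference was 1.13 ± 0.32 (SE, adjusted p = 0.0345), and the day 20 difference of nearly the same size missed the threshold (adjusted p = 0.0511), which it passed without any 1 array of days 9 and 16 (adjusted p 0.0255 and 0.0364), with the 2 groups alone (adjusted p = 0.0115) and without genes of mean signal under 50 (adjusted p = 0.0489). Without the day 9 array of culture 1, PUT1 also passed on day 9 (1.35, adjusted p = 0.0329). The day 16 call of PUT1 was lost without any 1 of the chemostat arrays, the culture 2 array of day 16 or either day 20 array (adjusted p 0.0573 to 0.199), and without the 3 high-ratio arrays it was 0.81 (adjusted p = 0.0850).

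**Figure D2:**
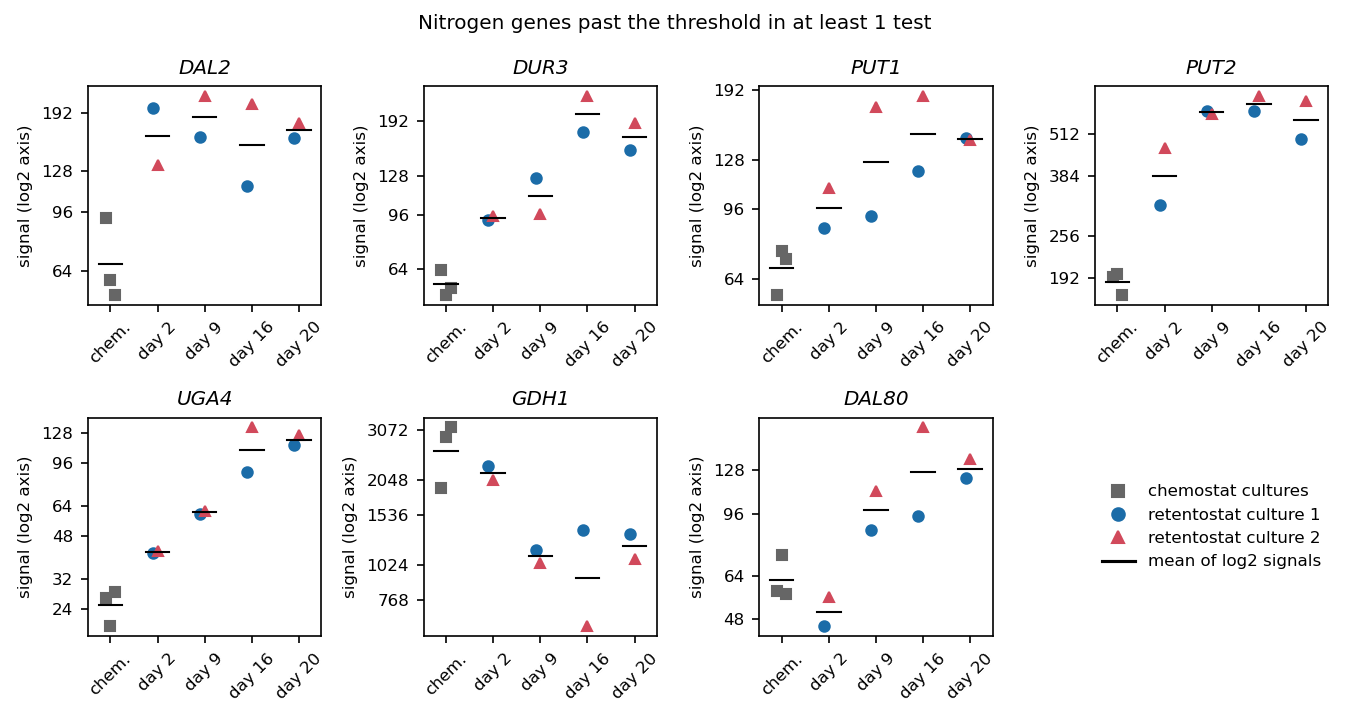
Signal (log axis, arbitrary units) of the 7 genes that passed in at least 1 comparison, on every array: squares are the 3 chemostat cultures, circles culture 1, triangles culture 2 and bars the mean of the log2 signals, by sampling point on the horizontal axis. UGA4 goes from 20.4 to 28.3 in the chemostat to 114 and 125 on day 20, while GDH1 goes from 1926 to 3149 to 1076 and 1325.

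The activator gene PUT3 had signals of 172 to 228 in the chemostat. On days 9 and 16 it was at 92.9 and 96.4 in culture 1 but at 368 and 396 in culture 2, on either side of the chemostat range. Its mean log2 difference was therefore -0.16 on day 9 and -0.08 on day 16, with an SE of 0.64. The culture 2 values of those days come from high-ratio arrays. Without the 3 high-ratio arrays PUT3 was lower than in the chemostat by a log2 of -1.15 on day 9 (adjusted p = 0.0385) and -1.10 on day 16 (adjusted p = 0.0471), with 1 array left on each day.

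The 3 genes of GABA use are UGA1 (GABA transaminase), UGA2 (succinate semialdehyde dehydrogenase) and UGA3 (the GABA-responsive activator), and none passed in any comparison. UGA1 had signals of 184 to 290.3 in the chemostat, 361 and 399.8 on day 9 (log2 difference 0.62, adjusted p = 0.132) and 264 in both cultures on day 20. UGA2 had 91.7 to 133 in the chemostat and 134 and 85.9 on day 20, a log2 difference of -0.06. UGA3 had 282 to 366.5 in the chemostat and 349 to 433 in the retentostat, with log2 differences of 0.10 to 0.30. All 3 had unadjusted differences above 0 on day 2, at 0.30 to 0.52.

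The 2 genes of arginine use are CAR1 (arginase) and CAR2 (ornithine aminotransferase), and neither passed in any comparison at those settings. CAR1 had 392, 405.5 and 283.5 in the chemostat and 303 and 267 on day 20, a log2 difference of -0.32 (adjusted p = 0.504). CAR2 had 562, 596 and 480.1 in the chemostat and 307 and 175 on day 16, a log2 difference of -1.23 ± 0.41 (SE) with an adjusted p of 0.0625. On day 20 CAR2 was at 542 in culture 1 and 284.5 in culture 2, and the log2 difference was -0.47. With each array scaled to the same median, the day 16 difference of CAR2 was -1.62 and passed (adjusted p = 0.0427), and it also passed without the culture 1 array of day 16 (-1.63, adjusted p = 0.0388).

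The 5 amino acid permease genes include GAP1 (the general amino acid permease), AGP1 (a broad-range permease), CAN1 (arginine), PUT4 (proline) and UGA4 (GABA). UGA4 was higher than in the chemostat on days 9, 16 and 20, with the largest log2 difference of the 33 genes on days 16 and 20, and the other 4 passed in no comparison at the settings of the main test. UGA4 signals were 26.8, 20.4 and 28.3 in the chemostat. They were 40.9, 59.0, 88.5 and 114 in culture 1 and 41.8, 61.2, 134.5 and 125 in culture 2 on days 2, 9, 16 and 20. All 8 retentostat values were above the 3 chemostat values, and the 2 cultures were closest on days 2 and 9. The mean was 25.2 ± 4.20 (SD, n = 3) in the chemostat and 119 ± 8.27 (SD, n = 2) on day 20.

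The log2 difference of UGA4 was 1.27 on day 9 (adjusted p = 0.0114), 2.13 on day 16 (adjusted p = 0.00132) and 2.26 on day 20 (adjusted p = 0.00127), each with an SE of 0.25, or 4.79-fold on day 20. On day 2 it was 0.73, with an adjusted p of 0.405. UGA4 was also the 1 member that passed between day 20 and day 2 (3.03% of the list, beside 0.592% of all genes and 0.323% called higher): it was 1.53 ± 0.28 (SE) higher, or 2.89-fold, with an adjusted p of 0.0493. With the replicate number as a block, that adjusted p was 0.0614, and it was 0.0540 to 0.445 when any 1 array other than those of day 16 was left out. On the probe set used, the difference between these days was 1.47 within culture 1 and 1.58 within culture 2. The other probe sets of UGA4 are given below. Since UGA4 lay under a signal of 50 in the chemostat, its values depend on how low signals were handled: with a floor of 50 the day 20 difference was 1.25 (adjusted p = 0.00578) and the day 9 call was lost (0.27, adjusted p = 0.344). With log2(signal + 50) the differences of days 9, 16 and 20 were 0.55 (adjusted p = 0.0513), 1.09 (adjusted p = 0.00309) and 1.17 (adjusted p = 0.00287).

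GAP1 had signals of 115 to 178 in the chemostat and 112.5 to 156 in the retentostat, and its log2 difference was -0.12 on day 20 (adjusted p = 0.764). AGP1 had 1235, 724 and 848 in the chemostat and 529.9 and 306 on day 20. Both day 20 values lay under the chemostat range, but the log2 difference of -1.18 ± 0.48 (SE) did not pass (adjusted p = 0.126). With the arrays of those 2 groups alone, AGP1 passed on day 20 (adjusted p = 0.0471), and without the culture 1 array of day 16 it passed on day 16 (-1.75, adjusted p = 0.0350). CAN1 had 151 to 252 in the chemostat, 132 to 301 in culture 1 and 93.2 to 250.0 in culture 2. PUT4 had 31.3 to 68.0 in the chemostat, 71.9 to 188 in culture 1 and 21.2 to 75.9 in culture 2. Its day 2 values, 188 and 75.9, both lay above the chemostat range. The log2 difference of that day, 1.34 ± 0.71 (SE), was the largest of the 33 genes and did not pass (adjusted p = 0.673).

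**Figure D3:**
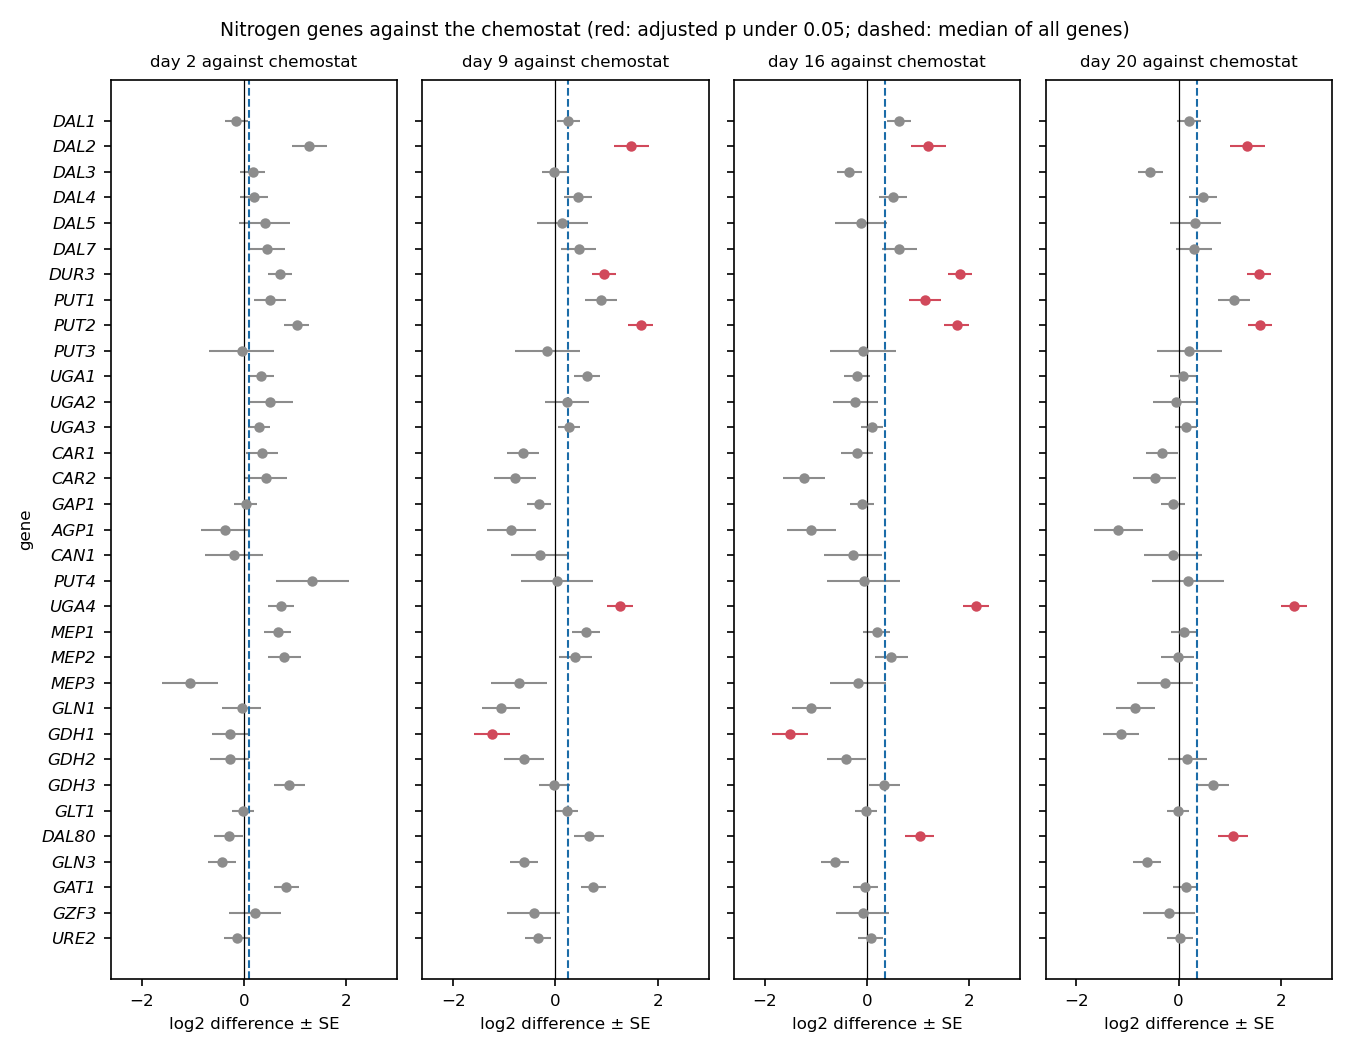
Log2 difference from the chemostat of each of the 33 genes on days 2, 9, 16 and 20 (points, with bars of 1 SE), in 1 panel a day, with red points for genes that passed and a dashed line at the median of all genes. On day 20 the points run from -1.18 for AGP1 to 2.26 for UGA4, and the line is at 0.36.

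The 3 ammonium permeases, MEP1, MEP2 and MEP3, passed in no comparison. MEP2, the permease of highest affinity, had 313, 423 and 286 in the chemostat, 685 and 495 on day 2 and 362 and 305 on day 20. Its log2 difference was 0.79 on day 2 (unadjusted p under 0.05, adjusted p = 0.503) and -0.02 on day 20. MEP1 had 167 to 237 in the chemostat, 411 and 259 on day 2 and 227 and 220.0 on day 20. The day 20 values of both genes were back within the chemostat range. MEP3 had 107 to 132 in the chemostat and 35.0 to 71.7 in culture 1, but 90.6 to 149 in culture 2.

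The 5 genes of ammonium assimilation are GDH1 and GDH3 (NADP-dependent glutamate dehydrogenases, which make glutamate), GDH2 (the NAD-dependent enzyme that breaks it down), GLN1 (glutamine synthetase) and GLT1 (glutamate synthase). GDH1 was lower than in the chemostat on days 9 and 16, the only member called lower than in the chemostat at the settings of the main test, at which the other 4 did not pass. GDH1 signals were 1926, 2917 and 3149 in the chemostat, then 2303, 1158.5, 1366 and 1325 in culture 1 and 2052, 1046, 621 and 1076 in culture 2. From day 9 on all 6 retentostat values lay under the lowest chemostat value, while both day 2 values lay within the chemostat range. The log2 difference was -1.24 on day 9 (2.37-fold lower, adjusted p = 0.0420) and -1.50 on day 16 (2.83-fold lower, adjusted p = 0.0177), with an SE of 0.35. On day 20 it was -1.13 and missed the threshold (adjusted p = 0.0622), which it passed with log2(signal + 50) (adjusted p = 0.0489), without either day 16 array (adjusted p = 0.0227), with the 2 groups alone (adjusted p = 0.0283) and with median scaling (adjusted p = 0.0329).

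The day 9 call of GDH1 was lost without any 1 of 9 arrays, the exceptions being those of day 16 (adjusted p 0.0510 to 0.147), and without the 3 high-ratio arrays (-1.17, adjusted p = 0.0745). Its day 16 call was lost without chemostat array 2 or 3 or the culture 2 array of day 16 (adjusted p 0.0565 to 0.112), and it was -0.93 without the 3 high-ratio arrays (adjusted p = 0.123). GLN1 had 2923, 1912 and 3024 in the chemostat, 2457 and 2530.3 on day 2, and 819 to 1780.0 from day 9 on. All 6 later values were under the chemostat range, with log2 differences of -1.06 on day 9 (adjusted p = 0.0878), -1.09 on day 16 (adjusted p = 0.0683) and -0.84 on day 20 (adjusted p = 0.158). With each array scaled to the same median, the GLN1 differences were -1.35, -1.48 and -1.28 and passed on all 3 days (adjusted p 0.0348, 0.0217 and 0.0460). Without the 3 high-ratio arrays GLN1 passed as lower on day 9 (-1.43, adjusted p = 0.0474) and day 16 (-1.65, adjusted p = 0.0412). Leaving out either day 16 array gave the day 9 difference an adjusted p of 0.0413, and leaving out that of culture 2 gave the day 16 difference 0.0398.

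GDH3 had 198.5, 248 and 230.2 in the chemostat, 419.5 and 412 on day 2 and 438 and 293.5 on day 20. Its log2 difference was 0.89 on day 2 (adjusted p = 0.403) and 0.67 on day 20 (adjusted p = 0.161). GDH2 had 466 to 721 in the chemostat and 677 and 711 on day 20 (log2 difference 0.17, adjusted p = 0.788). GLT1 was the steadiest of the 5, with signals of 933 to 1325 over the 11 arrays and log2 differences of -0.03 to 0.23.

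Among the 5 GATA regulators, the repressor gene DAL80 was higher on days 16 and 20, and GLN3, GAT1, GZF3 and URE2 passed in no comparison at the settings of the main test. Other settings added calls of GLN3, GAT1 and URE2, given with each gene. DAL80 had 57.7, 73.1 and 56.5 in the chemostat. It had 45.8, 86.5, 94.7 and 122 in culture 1 and 55.7, 111, 169 and 137 in culture 2 on days 2, 9, 16 and 20. Both day 2 values lay under the chemostat range and all 6 later ones above it. The log2 difference was -0.30 on day 2 (adjusted p = 0.869), 0.66 on day 9 (adjusted p = 0.154), 1.03 on day 16 (adjusted p = 0.0348) and 1.06 on day 20 (adjusted p = 0.0416), with an SE of 0.29. DAL80 also passed the F test over the sampling points (adjusted p = 0.0420). Between day 20 and day 2 it differed by 1.36 ± 0.32 (SE, adjusted p = 0.101), with 1.41 in culture 1 and 1.30 in culture 2, and it passed with the culture as a random block (adjusted p = 0.0277).

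The DAL80 calls were close to the threshold. Without any 1 of the chemostat arrays the day 16 adjusted p was 0.0540 to 0.103 and that of day 20 was 0.0689 to 0.122. The day 16 call was also lost without the culture 2 array of day 16 (0.61, adjusted p = 0.203) or either day 20 array (adjusted p = 0.0564), and the day 20 call without either day 2 array (adjusted p = 0.0588) or either day 20 array (adjusted p 0.138 and 0.269). Without the 3 high-ratio arrays the difference was 0.61 on day 16 (adjusted p = 0.141) and 0.97 on day 20 (adjusted p = 0.0754), and the F test gave an adjusted p of 0.0994. The F test was lost without any 1 chemostat, day 2 or day 20 array (adjusted p 0.0821 to 0.131). When each array was scaled to the same median, it was 0.64 on day 16 (adjusted p = 0.130) and 0.63 on day 20 (adjusted p = 0.163).

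GLN3 had signals of 126, 147 and 92.5 in the chemostat, 75.3, 84.5, 77.5 and 67.3 in culture 1 and 105, 72.7, 78.2 and 89.8 in culture 2. All 6 values from day 9 on lay under the chemostat range, with log2 differences of -0.61, -0.62 and -0.62 on days 9, 16 and 20 that did not pass (adjusted p 0.165, 0.131 and 0.155). With each array scaled to the same median, they were -1.01 on day 16 (adjusted p = 0.0392) and -1.05 on day 20 (adjusted p = 0.0427), and both passed, as they did under quantile scaling (adjusted p 0.0446 and 0.0436). GAT1, the other activator gene, had 229, 199.9 and 165 in the chemostat, 397, 330.5, 169.9 and 200.4 in culture 1 and 305, 324.5, 215 and 233 in culture 2. Its values on days 2 and 9 lay above the chemostat range in both cultures, and those of days 16 and 20 overlapped it. The log2 difference of GAT1 was 0.83 on day 2 (adjusted p = 0.347), 0.74 on day 9 (adjusted p = 0.0674), -0.04 on day 16 and 0.14 on day 20. That of day 9 passed with a floor of 50 (adjusted p = 0.0415), with no filter on low values (adjusted p = 0.0430) and without either day 16 array (adjusted p = 0.0498).

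GZF3 had 76.7, 105.5 and 113 in the chemostat, 107, 42.8, 53.3 and 77.3 in culture 1 and 119, 122, 157 and 94.1 in culture 2. On days 9 and 16 its culture 1 values lay under the chemostat range and its culture 2 values above it. URE2 had 308, 338 and 329.6 in the chemostat, 306, 206, 285 and 329.6 in culture 1 and 289.6, 316, 408 and 331 in culture 2. Its log2 difference was 0.02 on day 20 (adjusted p = 0.965). On day 9 it was -0.35 (adjusted p = 0.397), and without the 3 high-ratio arrays URE2 passed as lower on that day (-0.66, adjusted p = 0.0478).

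The median size of the gap between the 2 cultures in these genes was 0.28, 0.39, 0.52 and 0.25 on days 2, 9, 16 and 20. Over all genes it was 0.33, 0.56, 0.60 and 0.25. Of the 33, 15 (45.5%) had culture 2 minus culture 1 of the same sign on all 4 days, beside 36.9% of all genes. Some of these gaps were small, down to 0.03 for UGA4. Both cultures contribute to each day's mean, so these gaps enter the SE of every retentostat group. PUT4 was lower in culture 2 by a log2 of -1.31, -1.15, -2.19 and -1.30 on days 2, 9, 16 and 20. MEP3 was higher in culture 2 by 1.37, 1.49, 1.06 and 0.87. CAR2 differed by -0.92, -0.80, -0.81 and -0.93 and AGP1 by -0.58, -1.02, -1.32 and -0.79. With 1 array per culture and day there was no test of these gaps.

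A second group of genes differed between the cultures mainly on days 9 and 16. The gap of PUT3 was 0.13, 1.99, 2.04 and 0.39 on the 4 days, that of GZF3 was 0.16, 1.51, 1.56 and 0.28, and that of DAL5 was 0.25, 1.57, 1.47 and 0.04. CAN1 went the other way on days 9 and 16, at -1.69 and -1.42, but its gap was 0.92 on day 2 and -0.40 on day 20. The number of members with a gap over 1 in size was 3, 7, 11 and 1 on days 2, 9, 16 and 20. In percent that is 9.09, 21.2, 33.3 and 3.03, beside 7.10, 24.1, 26.8 and 4.29 of all genes. The culture 2 arrays of days 9, 16 and 20 had ACT1 ratios of 27.0, 217 and 31.8, and the part of that ratio in these gaps was not tested.

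**Figure D4:**
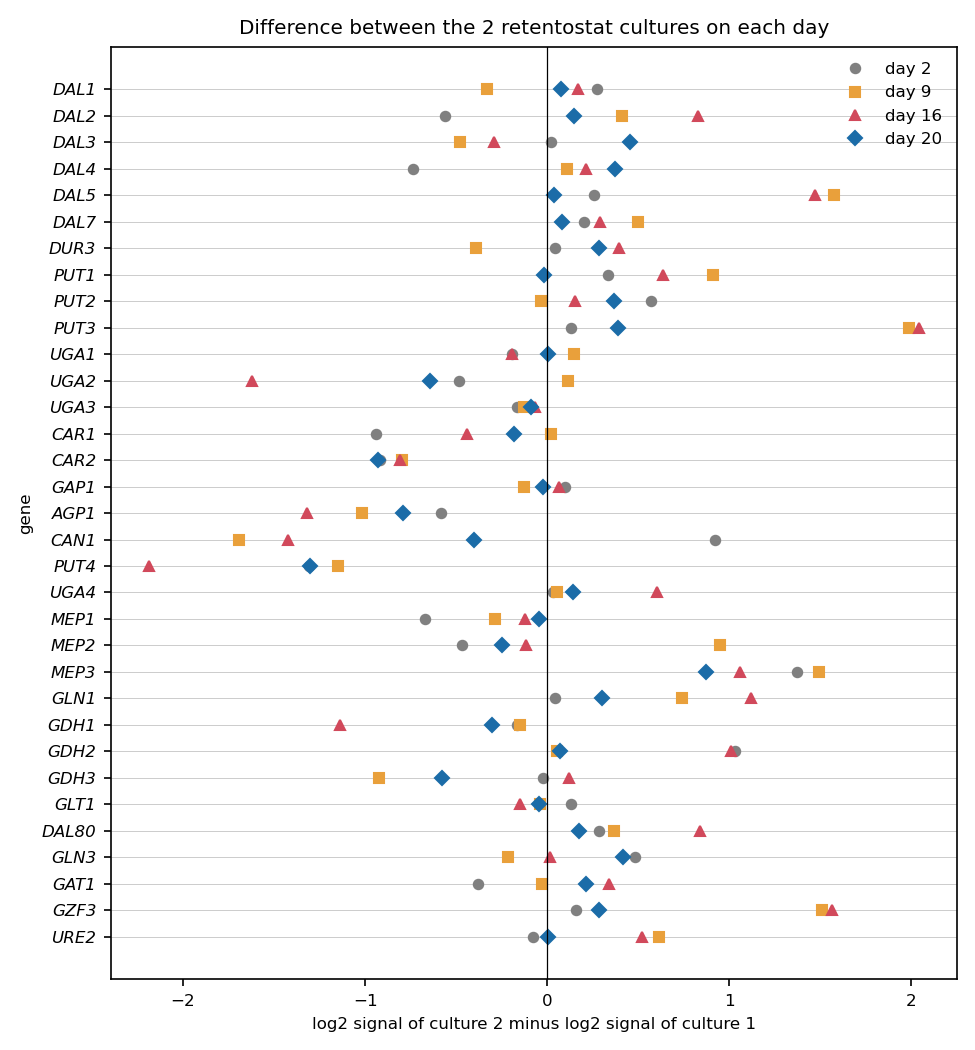
Log2 signal of culture 2 minus that of culture 1 (horizontal axis) for each of the 33 genes, with 1 symbol for each of days 2, 9, 16 and 20. PUT4 and MEP3 keep their gap on all 4 days, while PUT3, GZF3 and DAL5 are apart by 1.47 to 2.04 on days 9 and 16 and by at most 0.39 on days 2 and 20.

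For the 4 genes with several probe sets the sets did not all give the same values, and the annotation does not place the probes within the genes. A second probe set of UGA4 had signals of 5.9 to 45.6 and log2 differences of 1.19, 0.66 and 0.57 on days 9, 16 and 20, against 1.27, 2.13 and 2.26 for the brightest set. When all probe sets of a gene were averaged, the UGA4 difference was 1.0 on day 16 (adjusted p = 0.0146) and 0.94 on day 20 (adjusted p = 0.0263). Between day 20 and day 2 it was then 0.39 and did not pass (adjusted p = 0.523). For UGA3 the brightest set gave 0.15 on day 20, and 2 other sets gave -1.92 and -2.04. The brighter of these had signals of 126, 130.1 and 122 in the chemostat, 144, 60.6, 86.5 and 78.6 in culture 1 and 84.1, 15.6, 15.4 and 7.0 in culture 2. Its lowest values were those of the 3 high-ratio arrays, and its culture 1 values of days 9, 16 and 20 also lay under the chemostat range. The part of the ACT1 ratio in these values was not tested. A second set of UGA2 gave 0.89, 1.06 and 0.80 on days 9, 16 and 20, with -0.06 on day 20 for the set used. For DAL5, 2 other sets gave -0.28 and -0.97 on day 20, against 0.32.

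**Figure D5:**
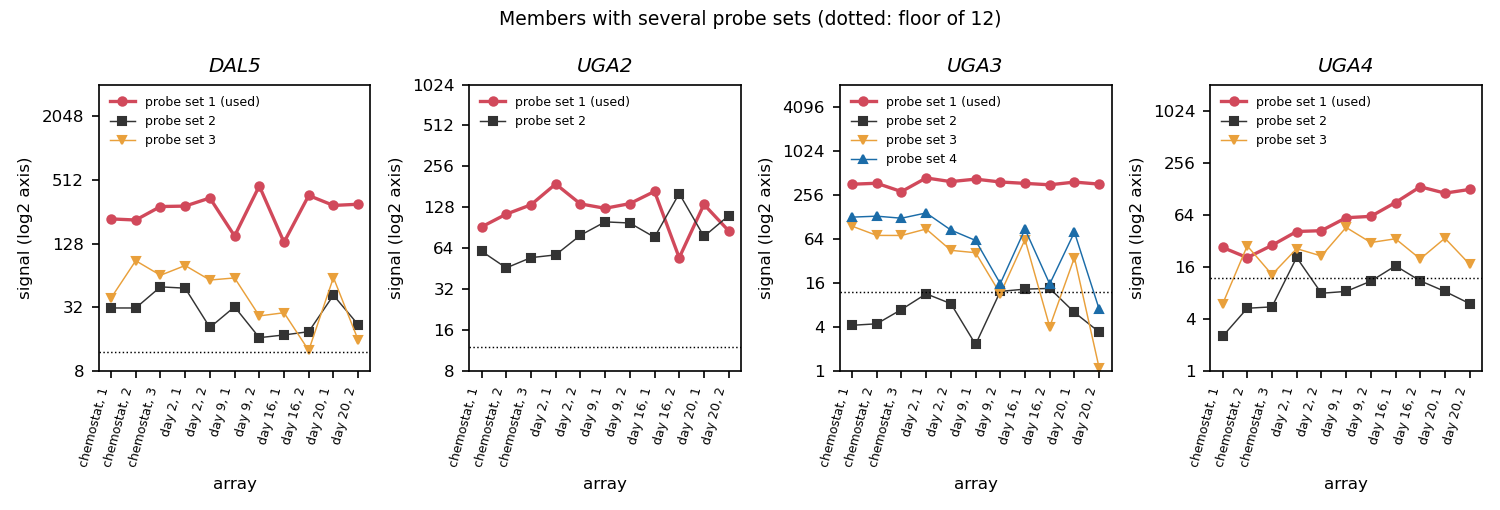
Signal (log axis, arbitrary units) on each of the 11 arrays for every probe set of DAL5, UGA2, UGA3 and UGA4, with a dotted line at the floor of 12 and the set used in red. For UGA3, 2 sets drop to or near the floor on the culture 2 arrays of days 9, 16 and 20, where the set used stays at 349 to 381.

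Other genes of nitrogen metabolism were taken from 4 further lists. On day 20, 13.5% of all genes passed (10.5% higher and 3.01% lower), the share to set beside the day 20 counts of these lists. The list named other catabolism genes is wider than its name and also holds genes of synthesis such as ARG1, so its values do not stand for catabolism alone. Of its 22 genes, 20 had a probe set of their own. On days 9 and 16, 8 and 10 of them passed (6 and 7 lower), beside 15.1% and 20.9% of all genes (3.68% and 4.32% lower). On day 20, 7 of the 20 passed (2 higher, 5 lower). Their median log2 difference over the 20 was -0.52, beside 0.36 over all genes. The 5 lower ones were GCV1, GCV2 and GCV3 of the glycine cleavage system, ARG1 of arginine synthesis and BAT1, the mitochondrial branched-chain aminotransferase. GCV1 signals were 2908, 2334 and 2676 in the chemostat and 463 and 627 on day 20. Its log2 difference was -2.29 ± 0.25 (SE, adjusted p = 0.00107). The call of GCV1 on day 20 against the chemostat was kept in all 23 other settings. GCV1 also passed between day 20 and day 2 (-1.53, adjusted p = 0.0473), beside 0.592% of all genes called and 0.269% called lower. That call was lost with the arrays of those 2 groups alone, where 0 of 5577 genes passed. GCV2 was at -2.20 ± 0.35 (adjusted p = 0.00505), GCV3 at -1.47 ± 0.35 (adjusted p = 0.0265) and ARG1 at -1.59 ± 0.22 (adjusted p = 0.00336). The GCV2 call was lost without either day 20 array (adjusted p 0.0506 and 0.0639) and the ARG1 call without the culture 2 array of day 20 (adjusted p = 0.0586). Leaving out any chemostat or day 20 array ended the GCV3 call (adjusted p 0.0602 to 0.193). The 2 higher ones, VID30 (1.32, adjusted p = 0.0283) and LEE1 (1.02, adjusted p = 0.0430), did not pass without the 3 high-ratio arrays (adjusted p 0.170 and 0.103), nor without any 1 chemostat or day 20 array (adjusted p 0.0666 to 0.257); LEE1 also failed without either day 2 array (adjusted p = 0.0546). Median and quantile scaling ended the calls of VID30 (adjusted p 0.0978 and 0.0953) and LEE1 (0.59 and 0.62, adjusted p 0.253 and 0.250), and quantile scaling that of GCV3 (adjusted p = 0.0839).

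Of 18 other permease genes, 2 passed on day 20, both higher, beside 10.5% of all genes called higher. They were the basic amino acid permease ALP1 and the tyrosine and valine permease TAT1. The same 2 genes passed as higher on days 9 and 16, beside 11.4% and 16.6% of all genes called higher. ALP1 signals were 33.7, 26.3 and 37.7 in the chemostat and 95.2 and 102 on day 20, a log2 difference of 1.61 ± 0.23 (SE, adjusted p = 0.00336). TAT1 was at 1.11 ± 0.25 (adjusted p = 0.0226). The median of the 18 was 0.40, beside 0.36 over all genes. The ALP1 call was lost without the culture 2 array of day 20 (adjusted p = 0.0550), and the TAT1 call without any 1 chemostat or day 20 array (adjusted p 0.0511 to 0.138). Under median and quantile scaling TAT1 was at 0.68 and 0.77 and did not pass (adjusted p 0.163 and 0.118).

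Of 29 other regulator genes, 7 passed on day 9, 6 on day 16 and 3 on day 20. These genes cover the TOR pathway, the amino acid sensor and pathway activators. All calls were higher, beside 11.4%, 16.6% and 10.5% of all genes called higher on those days. The median of the 29 on day 20 was 0.40. Those that passed on day 20 were ARG82, UME6 and PTR3. ARG82, the inositol polyphosphate multikinase first known from arginine control, was at 2.30 ± 0.47 (SE, adjusted p = 0.0151), UME6 at 1.61 ± 0.39 (adjusted p = 0.0274) and PTR3, a subunit of the amino acid sensor, at 0.99 ± 0.23 (adjusted p = 0.0240). None of the 3 calls held without the 3 high-ratio arrays (adjusted p 0.0850, 0.157 and 0.0610), and each was also lost without either day 20 array (adjusted p 0.0567 to 0.210). Leaving out chemostat array 2 ended those of ARG82 (adjusted p = 0.0552) and UME6 (adjusted p = 0.0828), array 3 those of UME6 (adjusted p = 0.0930) and PTR3 (adjusted p = 0.0876), and array 1 that of PTR3 (adjusted p = 0.0838). Under median and quantile scaling UME6 (adjusted p 0.0939 and 0.105) and PTR3 (0.56 and 0.54, adjusted p 0.209 and 0.238) did not pass. None of 15 genes of the retrograde pathway and 2-oxoglutarate supply passed on day 20, with a median of 0.20. PYC1 passed on day 9 and RTG2 on day 16, both higher, beside 11.4% and 16.6% of all genes called higher on those days.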

How the data were processed

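Signals were measured on 11 one-colour Affymetrix yeast arrays, 1 RNA extraction each. The deposited values are intensities per probe set, made with GCOS 1.2 per the submitters' processing notes; its settings are unknown here. The mean signal without the 2% highest and lowest probe sets was the same on all arrays within 0.0311%, which is how globally scaled arrays look.

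The array holds 9335 probe sets, of which 60 are controls. The platform annotation pairs 6504 with 1 gene, 328 with several and 2443 with none. Each of 5656 genes was represented by its brightest probe set (mean log2 signal). Signals under 12 were set to 12, and 79 genes at or under 12 on all arrays were left out, which left 5577. Symbols came from the platform annotation, updated through a RefSeq gene table. No genome build is given, so no coordinates are printed, and sequences were not used here.

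The fit was run in R 4.3.3 with limma 3.58.1 (lmFit, eBayes, 1 mean per group over all 11 arrays, two-sided, 6 residual and 3.52 prior degrees of freedom). Errors of differences are moderated standard errors. On data simulated for day 20 against the chemostat over 5577 genes, 24% of 100 changes of log2 1 and 80% of 100 of log2 2 were called, with 5 false calls. The simulated arrays were independent, with no culture effect, no shift of all genes and no other genes changed. These rates may therefore not hold for the real arrays.

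The replicate number pairs day 20 with day 2, since all retentostat arrays of a number carry 1 culture code; each chemostat array has its own. Deviations from the group means correlated at 0.227 to 0.690 between retentostat arrays of a number and at -0.209 to 0.288 between chemostat and retentostat arrays. The fit treats the repeated samples of a culture as independent, so p-values of the comparisons with the chemostat may be too small. Day 20 and day 2 are compared within cultures, where p-values may instead be too large. With the culture as a random block (correlation 0.247), 149 of all genes passed between these 2 days, beside 33 in the main test. Alternatives were other floors, pseudocounts, scalings, filters, probe set rules, array sets, replicate blocks, an intensity trend and each array left out in turn. The members and lists were chosen with earlier results of these data known. All members are accounted for; those that passed and the GATA regulators are given on every array, and from each further list up to 4 rises and 4 falls of day 20 are named, plus BAT1, DCG1, PYC1 and RTG2, chosen after their values were seen.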

Additional observations from a re-analysis of the deposited data

Results flagged for a closer look

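UGA4 differed from the chemostat by more on day 20 than on day 2. The difference between these 2 effects, which is the day 20 level against the day 2 level, was a log2 of 1.53 ± 0.28 (SE), with an adjusted p of 0.0493 by limma over all 5577 genes. It was above 0 in both cultures, at 1.47 and 1.58. Under the other settings the adjusted p ran from 0.0134 with the culture as a random block to 0.523 with all probe sets averaged, and 17 of 23 settings gave a value over the threshold.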

How the results depend on the processing

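The 22 calls of members were recomputed under up to 23 other settings each: of 502 values, 381 stayed past the threshold, 121 did not, and none changed sign. Those of UGA4 on days 16 and 20, PUT2 on days 9 and 16 and DUR3 on day 16 held in all 23. Of 71 recounts of members past the threshold that left out no single array, 55 were within 1.5 times the main count. The 5 members of day 9 became 3 with quantile scaling, 3 with the 2 groups' arrays alone and 2 with a fixed replicate block. Of all genes, 10.3%, 11.1% and 11.2% passed in these 3 settings. The 7 of day 16 became 3 with the 2 groups' arrays alone, beside 13.6% of all genes. The 5 of day 20 became 8 with the 2 groups' arrays alone (AGP1, PUT1 and GDH1 added, among 1942 of all genes) and 2 without the 3 arrays of high ACT1 ratio (UGA4 and DUR3, among 301 of all genes). Between day 20 and day 2 the count of 1 became 0 with log2(signal + 50), median scaling, quantile scaling, all probe sets averaged, the 2 groups' arrays alone, the 3 arrays left out, the fixed replicate block or the intensity trend, and 2 (UGA4 and DAL80) with the culture as a random replicate block. DAL80 and PUT2 did not pass the F test without the 3 arrays, with 1 array left on each of days 9, 16 and 20. With 1 chemostat array left out, the count was 2 or 3 on day 9, 3 to 5 on day 16 and 3 or 4 on day 20. Of all genes, 5.86% to 8.41% passed on day 9 in these fits, 9.63% to 12.0% on day 16 and 4.79% to 5.68% on day 20. In the F test the count was 3 in these fits, beside 2.80% to 3.44% of all genes. It was 0 on day 2 and between day 20 and day 2, beside 0% and 0.269% to 0.377% of all genes. Leaving out a retentostat array leaves 1 array of its day, so no count is given for those fits. Calls lost in them are given with each gene above. Fewer arrays enter the fits without some arrays, and with the fixed replicate block chemostat array 3 has no part in the differences. For the other changes the cause was not tested. Median scaling moved the median of all genes on day 20 from 0.36 to -0.07 and quantile scaling to 0.03. The fixed replicate block pairs chemostat arrays 1 and 2 with cultures 1 and 2 by number alone, since their culture codes differ. Its differences from the chemostat were those without chemostat array 3, such as 1.33 for DAL2 on day 9 in both fits. That block ended the calls of DAL2 on days 9, 16 and 20 and of DUR3 and GDH1 on day 9. It added AGP1 (-1.14, adjusted p = 0.0258) and CAR2 (-1.32, adjusted p = 0.0261) on day 16. On day 20 it added AGP1 (-1.23, adjusted p = 0.0280) and PUT1 (1.12, adjusted p = 0.0431). The random block added CAR2 on day 16 (adjusted p = 0.0281), PUT1 on day 20 (adjusted p = 0.0401) and GDH1 and CAR2 in the F test (adjusted p 0.0393 and 0.0346). GDH1 also passed the F test with log2(signal + 50), median scaling or the intensity trend, and GLN1 with median scaling. No depth is recorded for arrays; signals near 12, such as those of DAL7, have little room above background.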
